A study of Mus musculus with 6 samples.

Results

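The genes encoded by mouse mitochondrial DNA were followed through an RNA-seq comparison of C2C12 cells, a mouse myoblast line, transfected with a control siRNA or with an siRNA against Cox7a2l. Members were all rows of the deposited count table whose gene identifier maps to a symbol beginning with mt-, which gave 37 of 52740 rows. They comprise 13 messages, 2 ribosomal RNAs (mt-Rnr1 and mt-Rnr2) and 22 transfer RNAs. The series holds 3 libraries labelled siCTRL and 3 labelled siCOX7A2L, numbered 1 to 3 in each group. All 6 came from C2C12 cells kept in medium with 10% fetal bovine serum and transfected with the RNAiMAX reagent, and the time after transfection was not given in the sources used here. Libraries were made from 2 µg of total RNA after removal of ribosomal RNA, with random primers and dUTP strand marking. Whether the replicates of a group are separate cultures is not in the labels, and the spread that the p-values rest on may therefore be technical. Values are given below in the order of replicates 1, 2 and 3, controls first. All values come from 1 cell line and 1 siRNA condition.

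Mitochondrial DNA is transcribed from both strands into long RNAs that run through several genes. The transfer RNAs lie between most of the other genes, and cutting them out frees the messages and the ribosomal RNAs. All messages but mt-Nd6 are read as heavy strand genes here, and mt-Nd6 is the only message of the light strand. The messages encode core subunits of complex I, complex III, complex IV and the ATP synthase (complex V), and the ribosomal RNAs form the mitochondrial ribosome that translates them. Cox7a2l, the target of the siRNA, is encoded in the nucleus and joins complexes III and IV into supercomplexes.

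Several of these genes have near-identical copies in nuclear DNA, and this limits how their counts can be read. In GENCODE M21 transcripts, 7 transcripts of chromosome 1 shared at least 50% of their 31-base words with a mitochondrial message. The copies of mt-Co2 (Gm28661, 681 bases), mt-Atp6 (Gm10925, 678 bases), mt-Co3 (Gm28437, 783 bases), mt-Nd4l (Gm10222, 294 bases) and mt-Nd4 (Gm28439, 876 bases) had 0 differences from the mitochondrial sequence over their whole length. The copy of mt-Co1 (Gm29216) covered 492 bases with 6 differences. The copy of mt-Nd3 (Gm28438) covered 345 bases with 1 difference, T3C, counted from the first base of the message. The first 60 bases of that pair are shown because they hold the only base that differs within the length of the copy, in capitals:
mt-Nd3: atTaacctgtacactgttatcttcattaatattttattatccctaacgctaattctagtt
Gm28438: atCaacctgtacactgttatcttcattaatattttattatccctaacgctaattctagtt
The copies of mt-Co2, mt-Atp6, mt-Nd4l and mt-Nd3 lacked the last 3 bases of the message, and the copy of mt-Co3 lacked the last 1. The ends of mt-Co2 and mt-Co3 are shown with the bases that the copy lacks in capitals:
mt-Co2 end: aactgatctgcttcaataattTAA
mt-Co3 end: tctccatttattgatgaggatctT
The capital T of mt-Co3 is also the whole of its encoded stop codon, which the poly(A) tail completes. The messages mt-Nd4 and mt-Cytb end in the same way. The other 6 messages (mt-Nd1, mt-Nd2, mt-Nd5, mt-Nd6, mt-Cytb and mt-Atp8) had no such copy, and shared 0% to 16.8% of their words with any transcript outside mitochondrial DNA.

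Counts were split between gene and copy in proportions that changed from library to library. Of the counts listed under mt-Atp6 or its copy, 78.5%, 81.3% and 13.5% were listed under the copy in controls and 81.0%, 83.8% and 3.43% after Cox7a2l siRNA. For mt-Co3 the copy held 88.2%, 67.4% and 35.0% in controls and 59.5%, 85.3% and 23.0% after Cox7a2l siRNA. The mt-Co3 split thus differed between replicates 1 and 2 of the same group, and went in opposite directions in the 2 groups. The copy of mt-Co2 held 81.1%, 76.6% and 66.5% in controls and 84.9%, 80.8% and 53.2% after Cox7a2l siRNA. For mt-Nd3 it held 93.1%, 100% and 66.6%, and 89.1%, 100% and 52.4%. All 4 splits were lowest in replicate 3 of both groups. The copies of mt-Co1 and mt-Nd4l never held more than 1.64% and 0.959%, and that of mt-Nd4 at most 5.86%. A read from a shared stretch cannot be assigned to gene or copy, so values of these messages are uncertain as listed and are given below also with the copy added.

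**Figure D1:**
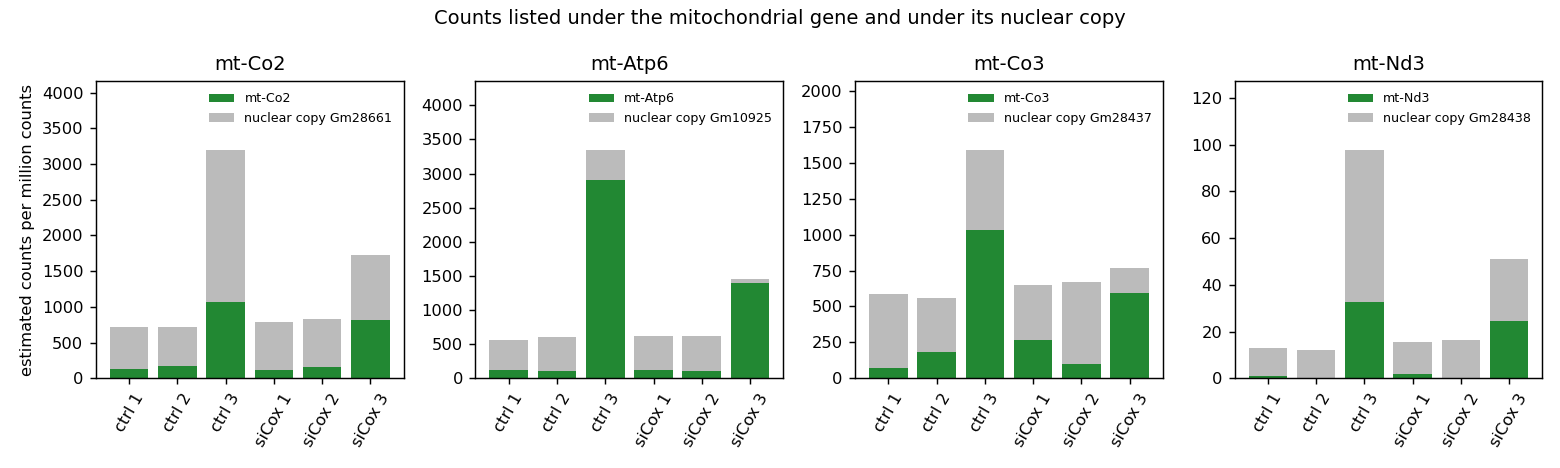
Estimated counts as CPM without TMM scaling (y axis), listed under mt-Co2, mt-Atp6, mt-Co3 and mt-Nd3 and, stacked on it, under its nuclear copy, in each of the 6 libraries (x axis). For mt-Atp6 the copy held 78.5% and 81.3% of the pair in control replicates 1 and 2 and 13.5% in control replicate 3.

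Cox7a2l checked the labels. It stood at 58.4, 60.02 and 58.2 CPM (counts scaled to the library total and by edgeR's TMM factor) in controls, and at 6.77, 5.98 and 3.46 CPM after Cox7a2l siRNA. Every Cox7a2l siRNA library was below every control, at 0.0931 times the control level (log2 difference -3.43, SE 0.25, edgeR adjusted p = 0.0122). The edgeR adjusted p was 0.0816, 0.0962 and 0.103 without control replicate 1, 2 or 3, and 0.112 and 0.286 without Cox7a2l siRNA replicate 1 or 2. The fit of group alone called 2 of 15022 genes, both lower (0.0133% called), and the fit that also holds the replicate number as a block called 109 (0.726% called). Of the muscle precursor markers looked for, 8 of 8 were present, with summed levels of 1983 to 2489 CPM in controls and 1824 to 3446 CPM after Cox7a2l siRNA. A list of 6 fibroblast genes, among them collagen genes, summed to 2540 to 3565 and 3430 to 5465 CPM, and its part in the results was not tested. Of its members, 4 were tested, of which 0 were called in the fit of group alone and 1, Dcn, was higher with the replicate block (edgeR adjusted p = 0.0419). Summed endothelial, blood and fat cell markers reached at most 1.15, 3.44 and 0.433 CPM, with Cldn5, Adgre1, Cidec and Lep at 0 in every library. Library totals ran from 9890218 to 17077826 estimated counts, the lowest in Cox7a2l siRNA replicate 3.

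All 37 genes together held 0.758%, 0.739% and 2.95% of all counts in controls. They held 0.834%, 0.753% and 1.84% after Cox7a2l siRNA. Replicate 3 was the highest library of each group, and the groups overlapped. The messages made up most of this share, at 0.6005%, 0.603% and 2.78% of all counts in controls and 0.616%, 0.589% and 1.61% after Cox7a2l siRNA. Their mean was 1.33% ± 1.26 (SD, n = 3) in controls and 0.938% ± 0.580 (SD, n = 3) after Cox7a2l siRNA, a difference smaller than the spread in either group (two-sided exact permutation p = 0.8, adjusted over 5 such comparisons p = 1). With 3 libraries against 3, the smallest p this test can give is 0.10. Within replicate numbers, the message share differed by 0.0158 points in pair 1, by -0.0139 points in pair 2 and by -1.17 points in pair 3 (Cox7a2l siRNA minus control). With the nuclear copies added these differences were 0.0183, 0.0224 and -1.39 points, so that pair 2 changed sign. The widest 95% Wilson interval of a message share reached 0.00784 points to each side, which covers counting error within 1 library only. It takes each estimated count as an independent read, although the reads carry no molecular identifiers. In bulk RNA, fewer cells with a transcript and less of it per cell cannot be told apart.

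Inside the mitochondrial counts, the 12 heavy strand messages took 78.1%, 80.6% and 93.2% in controls and 73.0%, 77.4% and 84.4% after Cox7a2l siRNA. The ribosomal RNAs took 20.8%, 18.4% and 5.73% in controls and 26.1%, 21.7% and 12.7% after Cox7a2l siRNA. Their share of mitochondrial counts was lowest in replicate 3 of both groups, and higher after Cox7a2l siRNA within each number. The light strand message mt-Nd6 took 1.11%, 1.01% and 1.11% in controls and 0.936%, 0.827% and 2.96% after Cox7a2l siRNA. The nuclear copies, which are not among the 37 genes, held a further 0.124% to 0.341% of all counts. The highest value was in control replicate 3 and the lowest in Cox7a2l siRNA replicate 3.

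**Figure D2:**
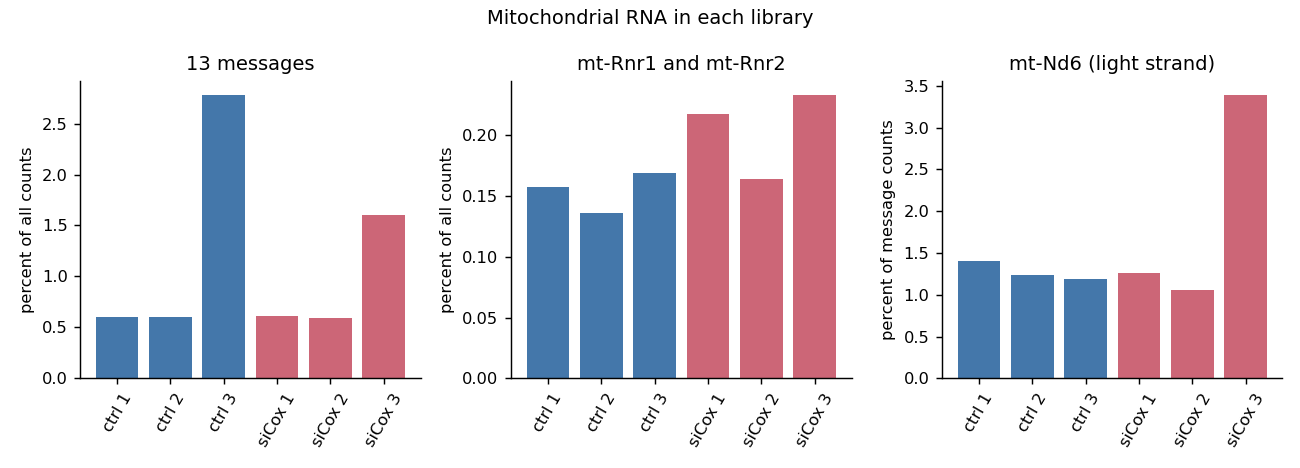
Bars give the message share and the ribosomal RNA share of all counts and the mt-Nd6 share of message counts (y axes, percent) in each of the 6 libraries (x axis, numbered by group), with each y axis starting at 0. The message share was 2.78% (control) and 1.61% (Cox7a2l siRNA) in replicate 3, and 0.589% to 0.616% elsewhere.

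The 16S ribosomal RNA, mt-Rnr2, was the only one of the 15 messages and ribosomal RNAs whose groups did not overlap, where 15.4% of all genes tested had groups apart. It stood at 1409, 1205 and 1327 CPM in controls and at 1906, 1477 and 2227 CPM after Cox7a2l siRNA. Every Cox7a2l siRNA library was above every control, with log2 differences of 0.44, 0.29 and 0.75 in pairs 1, 2 and 3. The fit of group alone gave mt-Rnr2 a log2 difference of 0.52 (SE 0.21, edgeR adjusted p = 0.778), which did not pass 0.05. With the replicate block it was 0.50 (SE 0.13, 1.42 times the control level, edgeR adjusted p = 0.101), which also did not pass. DESeq2 with the replicate block called it, at 0.49 (adjusted p = 0.0149), where 4.42% of 11187 genes were called. The authors' deposited table gives mt-Rnr2 a log2 fold change of 0.50 with an adjusted p of 0.0210. That table rests on the same 6 libraries, so it is not independent of the fits here. The share of all genes that it calls was not counted. DESeq2 with group alone called 0 of the 2 ribosomal RNAs (smallest DESeq2 adjusted p = 0.624). The call therefore changed with the tool and with the block, while the log2 difference was 0.49 to 0.52 in the fits named above. Leaving out libraries or replicate numbers gave 0.35 to 0.67. On log2 TPM (limma), the median of the 2 ribosomal RNAs was 0.03. In those fits the median over all genes tested was -0.245 or -0.196 (pseudocounts 0.1 and 1).

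The 12S ribosomal RNA, mt-Rnr1, stood at 154, 144 and 324 CPM in controls and 192, 171 and 264 CPM after Cox7a2l siRNA. Its groups overlapped, with log2 differences of 0.32, 0.25 and -0.29 in pairs 1, 2 and 3. The fit of group alone gave 0.02 (edgeR adjusted p = 0.996), and that with the replicate block 0.10 (edgeR adjusted p = 0.758). Its counts were 0.109, 0.120 and 0.244 times those of mt-Rnr2 in controls, and 0.101, 0.116 and 0.119 times after Cox7a2l siRNA. Control replicate 3 stood apart from the other 5 libraries in this ratio. Libraries were depleted of ribosomal RNA, and whether depletion acted on these 2 RNAs was not tested.

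Together the ribosomal RNAs held 0.158%, 0.136% and 0.169% of all counts in controls and 0.218%, 0.164% and 0.233% after Cox7a2l siRNA. The means were 0.154% ± 0.0168 and 0.205% ± 0.0364 (SD, n = 3 each; two-sided exact permutation p = 0.2, adjusted p = 1), and the groups overlapped. Each pair was higher after Cox7a2l siRNA, by 0.0598, 0.0279 and 0.0641 points. The log2 ratio of ribosomal RNA to message counts, which does not depend on the library total, was -1.93, -2.15 and -4.04 in controls and -1.50, -1.85 and -2.79 after Cox7a2l siRNA. Each pair was again higher after Cox7a2l siRNA, by 0.43, 0.30 and 1.25. The mean difference was 0.66 (two-sided exact permutation p = 0.5, adjusted p = 1). Without control replicate 3 the difference of means was -0.0055, while pairs 1 and 2, which do not hold that library, were both above 0.

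None of the 13 messages was called, in the fit of group alone (edgeR adjusted p 0.916 to 0.995, 0 at unadjusted p under 0.05 against 6.35% of all genes) or with the replicate block (edgeR adjusted p 0.278 to 0.980, 1 at unadjusted p under 0.05 against 17.7% of all genes). DESeq2 with the block also called 0 of them (adjusted p 0.215 to 0.986). Their log2 differences in the fit of group alone ran from -0.81 to 0.62 with a median of -0.37, beside 0.01 over all genes tested. With the replicate block the median was -0.08. All 13 overlapped between groups. As listed, 9 messages were higher after Cox7a2l siRNA in pair 1, 6 in pair 2 and 1 in pair 3. With the nuclear copies added, these counts became 11, 10 and 1. The share of all genes that were higher in each pair was not counted. Messages cut from the same long RNA are not independent of each other. The message that was higher in pair 3 was mt-Nd6.

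**Figure D3:**
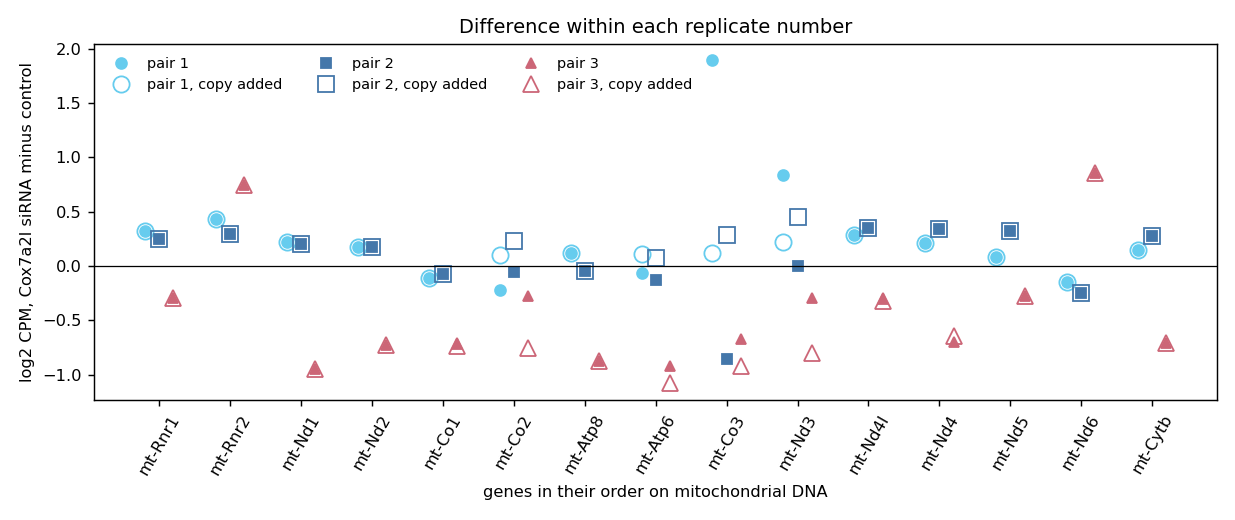
Difference in log2 CPM, Cox7a2l siRNA minus control (y axis), within each replicate number, as listed (filled) and with the nuclear copy added (open), for the ribosomal RNAs and messages in their order on mitochondrial DNA (x axis). In pair 3 the heavy strand messages lie below 0, between -1.08 and -0.28 with copies added, while mt-Nd6 and mt-Rnr2 lie above 0.

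Of the complex I messages on the heavy strand, mt-Nd1, a membrane subunit next to the quinone site, stood at 251, 264 and 3272 CPM in controls and 292, 305 and 1700.2 CPM after Cox7a2l siRNA. Levels of mt-Nd2, a proton-pumping subunit, were 94.7, 94.1 and 1652 CPM and then 107, 106 and 995 CPM. Both were higher after Cox7a2l siRNA in pairs 1 and 2 (by 0.22 and 0.21 for mt-Nd1 and by 0.18 and 0.18 for mt-Nd2 on the log2 scale) and lower in pair 3 (-0.94 and -0.73). The proton-pumping subunits mt-Nd4 and mt-Nd5 followed the same signs. Levels of mt-Nd4 were 252, 259 and 1569 CPM in controls and 292, 329 and 965 CPM after Cox7a2l siRNA. For mt-Nd5 they were 150.4, 141 and 1769 CPM and then 159, 176 and 1456 CPM. The pair 3 difference was smaller for mt-Nd5 (-0.28) than for mt-Nd4 (-0.70).

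The short membrane subunit mt-Nd4l stood at 80.8, 87.1 and 849.8 CPM in controls and 98.5, 111 and 687 CPM after Cox7a2l siRNA. It too was higher in pairs 1 and 2 (0.29 and 0.35) and lower in pair 3 (-0.31). As listed, mt-Nd3, another membrane subunit, had 0.865, 0 and 32.0 CPM in controls and 1.66, 0 and 26.1 CPM after Cox7a2l siRNA. With its copy added it stood at 12.8, 12.1 and 95.7 CPM and at 15.01, 16.5 and 54.8 CPM. Replicate 2 of both groups, listed at 0, was thus at a level near that of replicate 1 once the copy was counted.

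Reads of mt-Nd4l and mt-Nd4 can also fall in both genes, since their messages overlap. The stretch below runs from the end of mt-Nd4l into mt-Nd4, with the 7 shared bases in capitals:
mt-Nd4l end and mt-Nd4 start: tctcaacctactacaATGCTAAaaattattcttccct

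Complex III has 1 message, mt-Cytb, for cytochrome b. It stood at 369, 362 and 2848 CPM in controls and 408, 439 and 1745 CPM after Cox7a2l siRNA. The pairs differed by 0.15, 0.28 and -0.71 on the log2 scale, and replicate 3 was far above the other libraries in both groups. This message has no near-identical copy.

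Of the complex IV messages, mt-Co1, the catalytic subunit, took 34.3% to 72.8% of message counts in a library, at 4334, 4237 and 9722 CPM in controls and 4011, 4023 and 5901 CPM after Cox7a2l siRNA. It was lower after Cox7a2l siRNA in each pair (-0.11, -0.08 and -0.72). The groups still overlapped, because control replicates 1 and 2 lay below Cox7a2l siRNA replicate 3. The copper-binding subunit mt-Co2 stood at 133, 168 and 1048 CPM and at 114, 162 and 867 CPM as listed. It was lower in each pair as listed (-0.22, -0.05 and -0.27), but with the copy added it was higher in pairs 1 and 2 and lower in pair 3 (0.10, 0.23 and -0.76). With the copy its levels were 706, 715 and 3131 CPM in controls and 755, 840.1 and 1852 CPM after Cox7a2l siRNA.

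The third core subunit of complex IV, mt-Co3, had opposite signs in pairs 1 and 2 as listed. It stood at 68.3, 181 and 1012 CPM in controls and 254, 99.7 and 635 CPM after Cox7a2l siRNA. The pairs therefore differed by 1.90, -0.86 and -0.67. With the copy added it stood at 579, 555 and 1557 CPM and at 627, 677 and 825 CPM, and the pairs differed by 0.12, 0.29 and -0.92. With the copy, pairs 1 and 2 had the same sign. In the fit with the replicate block, mt-Co3 was called lower without replicate 1 (-0.75, edgeR adjusted p = 0.0172) and higher without replicate 2 (0.60, edgeR adjusted p = 0.0393). Over all genes, these fits called 373 of 15220 without replicate 1 and 1210 of 15384 without replicate 2. With the copy added, the same 2 fits gave -0.30 (edgeR adjusted p = 0.597) and -0.39 (edgeR adjusted p = 0.226). No message was called in these 2 fits once copies were added.

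Of the ATP synthase messages, mt-Atp8, a short accessory subunit, stood at 15.04, 16.4 and 242 CPM in controls and 16.4, 15.9 and 132 CPM after Cox7a2l siRNA. Levels of mt-Atp6, which lines the proton path, were 119, 112 and 2835 CPM and then 114, 102 and 1495 CPM. As listed, mt-Atp6 was lower in each pair (-0.07, -0.13 and -0.92). With its copy it stood at 554, 596 and 3275 CPM and at 599.6, 628 and 1549 CPM, and only pair 3 was lower (0.11, 0.08 and -1.08). Both are carried on 1 RNA, and the stretch below shows the end of mt-Atp8 and the start of mt-Atp6, with the 43 bases they share in capitals:
mt-Atp8 end and mt-Atp6 start: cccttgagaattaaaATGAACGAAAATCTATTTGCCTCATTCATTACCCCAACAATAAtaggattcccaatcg
A read in this stretch can be counted to either gene. The pair differences of mt-Atp8, which has no copy, were 0.12, -0.05 and -0.88.

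The light strand message mt-Nd6, a complex I subunit, departed from the heavy strand messages most clearly in pair 3. It stood at 83.4, 74.3 and 321 CPM in controls and 75.3, 62.7 and 583 CPM after Cox7a2l siRNA. It was lower in pairs 1 and 2 (-0.15 and -0.25) and higher in pair 3 (0.86), where every heavy strand message was lower. With copies added, heavy strand messages ran from -0.11 to 0.29 in pair 1 and from -0.07 to 0.45 in pair 2. On that scale mt-Nd6 was the lowest message in both pairs. As listed it was not, since the lowest messages stood at -0.22 and -0.86. Of the message counts in a library, mt-Nd6 took 1.40%, 1.24% and 1.18% in controls and 1.27%, 1.06% and 3.39% after Cox7a2l siRNA. The log2 ratio of light to heavy strand message counts was -6.14, -6.32 and -6.38 in controls and -6.28, -6.55 and -4.83 after Cox7a2l siRNA. In these counts, of which mt-Co1 takes a large part, Cox7a2l siRNA replicate 3 was the library farthest from the others. Without mt-Co1 the ratio was -4.20, -4.50 and -5.74 in controls and -4.63, -4.88 and -4.20 after Cox7a2l siRNA. Over heavy strand messages with under 20% shared words it was -3.40, -3.56 and -4.93 in controls and -3.71, -4.05 and -3.37 after Cox7a2l siRNA. On both of these scales control replicate 3 was the library apart, and Cox7a2l siRNA replicate 3 lay at the level of control replicate 1. Pair 3 was higher after Cox7a2l siRNA, and pairs 1 and 2 lower, on all 3 scales. The groups overlapped on each scale. Over all heavy strand messages the mean difference was 0.39 (two-sided exact permutation p = 0.8, adjusted p = 1), and without Cox7a2l siRNA replicate 3 it was -0.14.

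The base composition of the messages marks their strand. The heavy strand messages held 5.88% to 16.1% G (median 11.0%) and 22.1% to 29.97% C, and mt-Nd6 held 28.1% G and 5.97% C. The genes mt-Nd5 and mt-Nd6 face each other and overlap at their ends. The stretch below is on the strand of mt-Nd5, with the 14 bases of the overlap in capitals:
mt-Nd5 end on the opposite strand of mt-Nd6: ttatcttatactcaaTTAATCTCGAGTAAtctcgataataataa
The libraries were strand marked, but whether counting used the strand is not given in the sources used here. Without strand, reads of RNA from either strand of the mt-Nd6 region could be counted to mt-Nd6, and in that case its value would not be one of light strand RNA alone.

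Replicate 3 was above replicates 1 and 2 for all 13 messages in both groups, once copies were added. In controls the share of all counts in replicate 3 was 2.34 (mt-Co1) to 17.8 (mt-Nd2) times the mean of replicates 1 and 2. After Cox7a2l siRNA it was 1.17 (mt-Co3) to 8.58 (mt-Nd2) times. For the ribosomal RNAs the factors in controls and after Cox7a2l siRNA were 2.20 and 1.34 for mt-Rnr1 and 1.03 and 1.21 for mt-Rnr2. Among messages without a copy, the factors were 17.8 and 8.58 for mt-Nd2, 15.6 and 7.54 for mt-Atp8, 12.9 and 5.25 for mt-Nd1 and 12.3 and 7.999 for mt-Nd5. The factor was smaller after Cox7a2l siRNA for each heavy strand message and larger for mt-Nd6 (4.14 and 7.76). As listed alone, mt-Atp6 gave 25.0 and 12.8 times, against 5.78 and 2.32 times with its copy. These factors are a description of single libraries, with no test. Replicate 3 was not alike in depth between the groups, with the highest total of all libraries in the control and the lowest after Cox7a2l siRNA. One row without a symbol held its lowest share in the former (5.81%) and its highest in the latter (11.1%). The part of both in the factors was not tested.

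**Figure D4:**
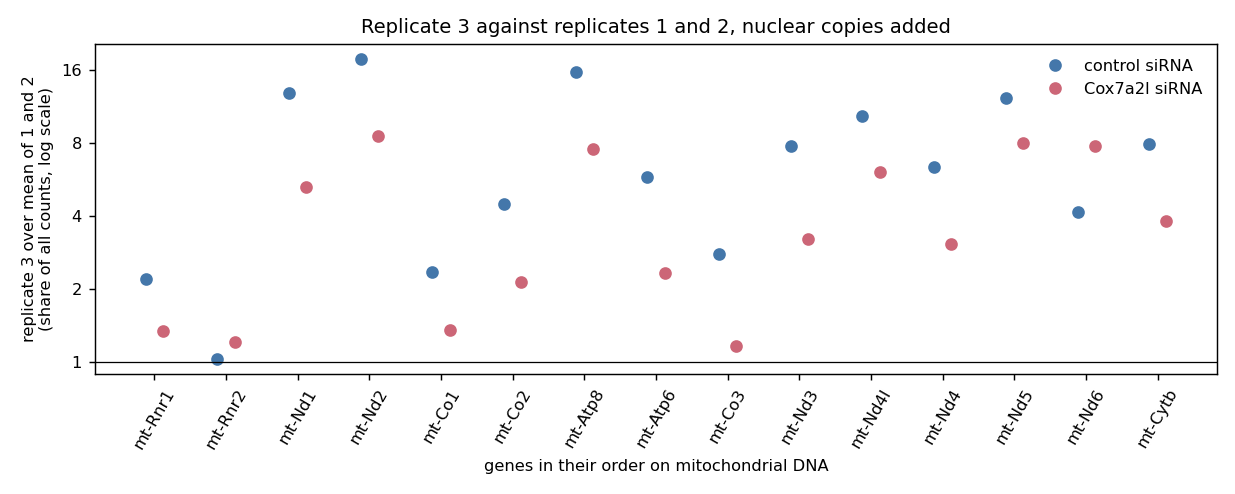
Share of all counts in replicate 3 over the mean of replicates 1 and 2 (y axis, log scale), with nuclear copies added, for each ribosomal RNA and message (x axis) in the control and the Cox7a2l siRNA group. All 13 messages lie above 1 in both groups, from 2.34 to 17.8 in controls and from 1.17 to 8.58 after Cox7a2l siRNA, and mt-Nd6 is the message with the larger factor after Cox7a2l siRNA.

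Levels of different messages were compared per length, as a percent of the summed TPM of the 13 messages with copies added. The share of mt-Co1 was 35.1%, 33.9% and 15.97% in controls and 31.1%, 29.7% and 14.3% after Cox7a2l siRNA. On this scale it was the highest message in 5 of the 6 libraries, and mt-Nd4l was higher in Cox7a2l siRNA replicate 3. The share of mt-Nd4l was 7.32%, 7.997% and 13.8% in controls and 8.74%, 9.38% and 18.8% after Cox7a2l siRNA. In the last library mt-Nd4, whose message overlaps that of mt-Nd4l, held 2.93%. The messages mt-Nd4l and mt-Atp8 are short, at 297 and 204 bases against 1545 for mt-Co1. As listed in control replicate 1, mt-Nd4l had 1214 counts at a TPM of 538, and mt-Co1 65134 counts at 2575. TPM per count thus differed by more than the lengths. Whether the TPM of so short a message gives its level was not tested. The share of mt-Co3 was 10.6%, 10.0% and 5.33% in controls and 11.0%, 11.3% and 4.48% after Cox7a2l siRNA. The shares of mt-Atp8 (3.52%, 3.996% and 11.5%, then 3.87%, 3.66% and 10.7%) and mt-Nd2 (1.22%, 1.20% and 4.01%, then 1.32%, 1.24% and 3.81%) were higher in replicate 3. Subunits of 1 complex were thus not at 1 level on the TPM scale: in control replicate 1, mt-Co1 held 35.1%, mt-Co2 15.5% and mt-Co3 10.6%. Both groups had a higher mt-Co1 share in replicates 1 and 2 than in replicate 3.

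**Figure D5:**
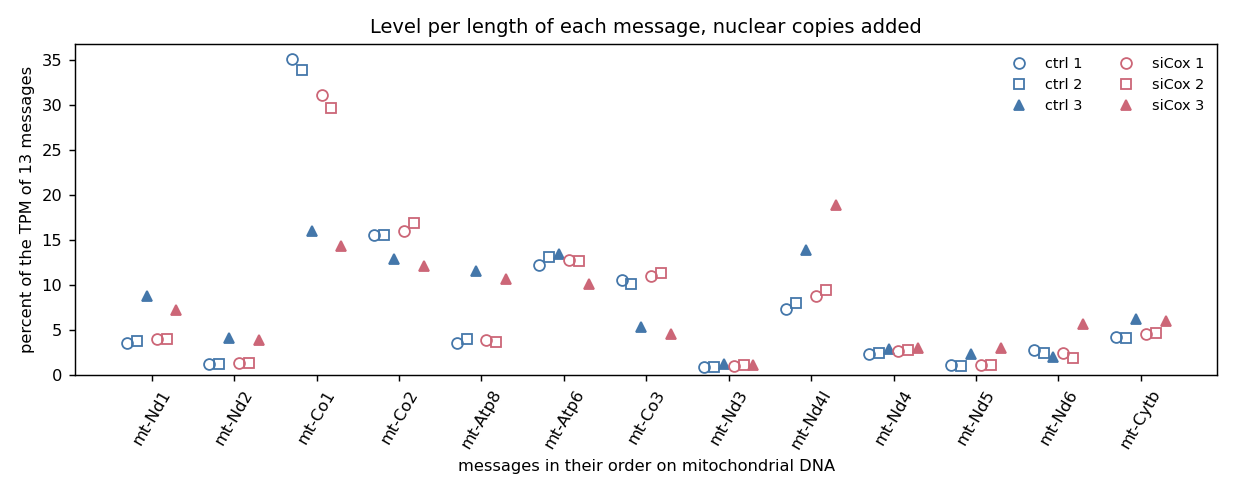
Percent of the summed TPM of the 13 messages, nuclear copies added (y axis), for each message in order on mitochondrial DNA (x axis) and each library. The share of mt-Co1 lies between 29.7% and 35.1% in replicates 1 and 2 and at 15.97% (control) and 14.3% (Cox7a2l siRNA) in replicate 3.

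The 22 transfer RNAs, 14 on the heavy and 8 on the light strand, are 59 to 75 bases long, and the libraries were kept at 150 to 300 bp. They gave 33 counts in all 6 libraries together, and 16 of 22 were at 0 in every library. A count of 0 allows a share of up to 1.76e-05% to 3.03e-05% of all counts, depending on the library. None passed the filter on low counts, so none was tested. The leucine transfer RNA mt-Tl1, which lies between mt-Rnr2 and mt-Nd1, was the only one with counts in every library, at 3, 2 and 8 counts in controls and 2, 1 and 7 after Cox7a2l siRNA. Its sequence is shown with the anticodon in capitals:
mt-Tl1: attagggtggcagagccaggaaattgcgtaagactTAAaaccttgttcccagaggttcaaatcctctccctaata
These counts are highest in replicate 3 of both groups, but they are too few for a comparison.

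Nuclear genes that act on mitochondrial RNA were read from lists of 72 names, of which 68 had a row and 67 were tested. The fit of group alone called 0 of them (1 at unadjusted p under 0.05), where 0.0133% of all genes were called. The replicate block called 1, higher, where 0.433% of all genes were called higher. That gene was Top1mt, the mitochondrial topoisomerase that relieves twist in the DNA, at 4.79, 5.14 and 6.01 CPM in controls and 9.65, 10.8 and 15.7 CPM after Cox7a2l siRNA. Every Cox7a2l siRNA library was above every control. The log2 difference of Top1mt was 1.17 with the block (SE 0.20, 2.24 times the control level, edgeR adjusted p = 0.0321) and 1.19 without it (edgeR adjusted p = 0.735).

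Other genes of transcription from mitochondrial DNA were not called. Polrmt, the RNA polymerase, stood at 80.6, 84.2 and 51.0 CPM in controls and 82.0, 84.0 and 73.0 CPM after Cox7a2l siRNA (log2 difference 0.19, edgeR adjusted p = 0.548 with the block). Tfam, which packs the DNA and opens its promoters, stood at 28.9, 26.1 and 22.7 CPM and at 27.9, 27.9 and 16.7 CPM (log2 difference -0.12, edgeR adjusted p = 0.752 with the block). Both were lowest in replicate 3 of each group, where the messages were highest, while Top1mt was highest there. How many of all genes were lowest in replicate 3 was not counted, and a link to the messages was not tested. Tfb2m, the initiation factor, stood at 14.9, 15.6 and 12.1 CPM and at 17.3, 18.0 and 16.8 CPM (log2 difference 0.30, edgeR adjusted p = 0.359 with the block), so its groups did not overlap. Groups were also apart for Mterf2, Top1mt, Grsf1, Mtif3 and Oxa1l, which with Tfb2m makes 6 of the 67 tested, where 15.4% of all genes tested had groups apart. Of these 6, only Top1mt was called. Lrpprc, which stabilises heavy strand messages, stood at 97.6, 95.9 and 53.0 CPM in controls and 98.5, 91.2 and 52.3 CPM after Cox7a2l siRNA (log2 difference -0.02, edgeR adjusted p = 0.962 with the block). It too was lowest in replicate 3 of both groups, by about the same amount. Medians of the block's log2 differences were 0.12 for the transcription list (12 genes), -0.01 for cutting (6), -0.04 for stability (17), 0.00 for modification (20) and 0.09 for translation (12).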

How the data were processed

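RNA-seq of 6 C2C12 libraries was used, 3 per siRNA group. The authors deposited estimated counts per gene (not whole in 12.5% to 14.3% of values) and TPM values. The result table deposited by the authors gives, per the file headers, a scaled signal (normalised counts), log2 fold changes, a test statistic (score) and p-values with adjusted p-values. The submitters' processing notes list the build mm39 and the tools DESeq2 1.30.1, Salmon 0.13.1 and Trim Galore 0.6.4, with no role for any. For the annotation release, the step from transcripts to genes and strand in counting, nothing is given in the sources used here.

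Counts were rounded, since the design foresaw whole counts. They were tested with edgeR 4.0.16 in R 4.3.3 (TMM, expression filter by group, 15022 genes, robust glmQLFit and glmQLFTest, Benjamini-Hochberg at 0.05), with group alone as the main fit. Shares used two-sided exact permutation tests (scipy 1.17.1, Python 3.11.15, pandas 2.3.3). As their replicate block, the signs of the differences within replicate numbers were flipped in all ways. Alternatives were the replicate block, a term for replicate 3, RLE size factors, library size scaling, no filter, DESeq2 1.42.0, limma 3.58.1 on log2(TPM + 0.1) and log2(TPM + 1), and each library left out. Shares and ratios were also computed with the copies added. Adding the copies in the fits of single genes, leaving out mt-Co1, keeping only messages with under 20% shared words, and leaving out number 1 or 2 with the block and copies added were chosen after the data were seen. Pair log2 values carry a prior count of 2.

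Same-numbered libraries deviated together from their group means (correlations of 0.570, 0.482 and 0.701 over 15022 genes), above 0.1 each, and so were taken as pairs, although replicates 1 and 2 also correlated across numbers (0.479 and 0.467). No label says what a number shares. Symbols, sequences and strands came from GENCODE M21 (GRCm38), matched by gene identifier without version (97.6% of rows). No coordinates are given, since that is another build. The genes named were all messages and ribosomal RNAs, transfer RNAs that passed the filter (mt-Tl1 is named beyond this, having counts in every library), Cox7a2l, nuclear regulators that were called, and a set of regulators. Not all of that set is described. Members and lists were chosen with earlier results of these data known.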

Additional observations from a re-analysis of the deposited data

How the results depend on the processing

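Of the alternatives run, 130 of 170 values of comparisons and 371 of 471 values of single genes were labelled as unchanged. For shares, ratios and single genes, this meant the same direction and the same side of 0.05. For counts of genes called, it meant an equal count or one within a set ratio. The exact tests of shares and ratios cannot fall below 0.10, so for these only the direction could change. Genes called went from 2 to 109 with the replicate block, 197 with a term for replicate 3, 51 with replicates 1 and 2 alone, 58 with library size scaling and the block, 27 with DESeq2 and 495 with DESeq2 and the block, and 113 with copies added and the block (368 and 1206 of these fits without number 1 or 2). Nuclear regulators called went from 0 to 1 (Top1mt) with the block, the replicate 3 term, library size scaling with the block, DESeq2 with the block, and copies with the block. Ribosomal RNAs called went from 0 to 1 (mt-Rnr2) with DESeq2 and the block. Changes of sign, in log2, were as follows, and none of these values was called. With the block mt-Co3 was 0.074, mt-Nd3 0.076, mt-Nd4l 0.11 and mt-Nd5 0.048. With the replicate 3 term they were 0.12, 0.11, 0.12 and 0.049. Replicates 1 and 2 alone gave mt-Nd1 0.21, mt-Nd2 0.17, mt-Atp8 0.032, mt-Co3 0.51, mt-Nd3 0.92, mt-Nd4l 0.31, mt-Nd4 0.27, mt-Nd5 0.20, mt-Nd6 -0.20, mt-Cytb 0.20 and Tfam 0.015. Library size scaling with the block gave mt-Co3 0.019, mt-Nd4l 0.069 and mt-Nd5 0.0026, and without it mt-Rnr1 -0.036. DESeq2 with the block gave mt-Co3 0.070, mt-Nd3 0.16, mt-Nd4l 0.11 and mt-Nd5 0.040. Copies with the block gave mt-Nd4l 0.11 and mt-Nd5 0.048. On log2 TPM, mt-Rnr1 was -0.17, mt-Nd6 -0.092 or -0.091 and Polrmt -0.21 or -0.20 (pseudocounts 0.1 and 1), and mt-Nd3 0.010 (0.1). The median over all genes tested was itself -0.245 or -0.196 on log2 TPM (pseudocounts 0.1 and 1). It was -0.032 with library size scaling without the block, against 0.011 in the main fit. The cause of the changes of sign was not tested. Among the mitochondrial genes, Cox7a2l and the regulators, the replicate block in edgeR changed no other call. Leaving out each library or number in turn gave ranges of -0.754 to 0.336 points for the message share (above 0 without control replicate 3), 0.0365 to 0.0712 points for the ribosomal RNA share, -2.17e-05 to 3.54e-05 points for the transfer RNA share, -0.0055 to 1.05 for the ribosomal RNA to message log2 ratio and -0.14 to 0.72 for the light to heavy log2 ratio. It gave 0 to 1 messages, 0 to 1 ribosomal RNAs (mt-Rnr2 without number 2, block, also with copies: 0.60, edgeR adjusted p = 0.0346), 0 to 3 regulators and 0 to 1210 genes called (373, 1210 and 51 without number 1, 2 or 3, with the block). Log2 ranges were -0.22 to 0.51 for mt-Rnr1, 0.35 to 0.67 for mt-Rnr2, -2.12 to 1.62 for mt-Nd1, -2.57 to 2.15 for mt-Nd2, -0.63 to 0.14 for mt-Co1, -1.75 to 1.39 for mt-Co2, -2.54 to 1.84 for mt-Atp8, -3.29 to 2.36 for mt-Atp6, -1.29 to 1.45 for mt-Co3, -3.73 to 4.40 for mt-Nd3, -1.74 to 1.88 for mt-Nd4l, -1.20 to 1.09 for mt-Nd4, -2.08 to 2.09 for mt-Nd5, -1.25 to 1.66 for mt-Nd6 and -1.54 to 1.28 for mt-Cytb. They were -3.65 to -3.22 for Cox7a2l (in fits that lost its call, -3.61 to -3.42), 0.92 to 1.33 for Top1mt, -0.031 to 0.28 for Polrmt, -0.23 to 0.090 for Tfam, 0.20 to 0.37 for Tfb2m and -0.25 to 0.19 for Lrpprc. Inside these ranges the sign also turned, near 0, with the block and without number 1 for mt-Rnr1 (-0.011, with copies -0.011), mt-Nd4l (0.029, with copies 0.022) and mt-Nd5 (0.029, with copies 0.029), without number 2 for mt-Nd3 (0.049) and Lrpprc (0.0065, with copies 0.0063), and without Cox7a2l siRNA replicate 2 for mt-Co3 (0.089). Of values away from 0, leaving out 1 library turned mt-Rnr1 (-0.16 and -0.19 without control replicate 1 or 2), mt-Co2 (0.22 and 0.14), mt-Nd3 (0.26 and 0.33), mt-Nd4l (0.26 and 0.23) and mt-Nd5 (0.28 and 0.25; these 4 without Cox7a2l siRNA replicate 1 or 2) and Lrpprc (0.12 and 0.10 without control replicate 1 or 2).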
